A study of Mus musculus with 32 samples.

Results

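The effect of HDM on gene expression was compared between the ear and the back skin of NC/Nga mice, which are inbred and develop dermatitis readily. The quantity tested for each of 22206 transcript rows was the ear effect (HDM ear minus sham ear) minus the back effect (HDM back minus sham back), on the log2 scale. The rows came from all 32 arrays of the series, 8 in each of 4 groups: sham back skin, HDM back skin, sham ear and HDM ear. With limma and a Benjamini-Hochberg adjusted p under 0.05, the difference was called for 2251 rows (10.1%). It was above 0, termed higher, for 1503 rows (6.77%) and below 0, termed lower, for 748 (3.37%). Rows with a higher difference include some that fell at both sites but less in ear. Opposite effects, with both site effects called, were found for 109 rows. Of these, 76 rose in ear and fell in back skin (0.342% of all rows tested), and 33 fell in ear and rose in back skin (0.149%). An effect was assigned to 1 site alone when the difference and that site's effect were called, the other site's effect was not, and the 95% confidence interval of the latter lay within -1 to 1. By that rule 751 rows rose in ear only (3.38%), 442 fell in ear only (1.99%), 113 rose in back skin only (0.509%) and 218 fell in back skin only (0.982%).

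RNA was taken from whole 8 mm punches of dorsal skin and ear. The tissue stood in RNAlater for 18 hours or longer, and biotin-labelled target for the Mouse Clariom D array was made from 100 ng of RNA per sample. All mice were NC/Nga kept under SPF conditions, and the labels name no other allele or agent. They do not spell out HDM, do not describe the sham treatment, and give no dose, schedule, age or sex. The series describes the collected tissue as inflamed. Both tissues use the same mouse numbers, and it is not stated whether samples that share a number came from 1 animal.

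Skin antigen is taken up by dendritic cells and macrophages of the dermis and by Langerhans cells of the epidermis, which present its peptides to CD4 T cells on MHC class II molecules. Transcription of the class II genes depends on the coactivator Ciita, which acts at promoter elements that include the Y box, a CCAAT-type motif bound by NF-Y. Chemokines such as Ccl17 and Ccl22, ligands of Ccr4, and Ccl19, a ligand of Ccr7, guide T cells and dendritic cells. The mouse ear is thin skin on a sheet of elastic cartilage with small muscles, whereas the punched back skin carries dense hair follicles, fat and a thin layer of striated muscle.

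The labelled tissues were checked on markers. Keratin genes of the basal epidermis were bright on every array, with Krt5 between 18.58 and 19.21. Acan, which encodes the cartilage proteoglycan aggrecan, ranged from 10.98 to 11.92 (median 11.60) in sham ear and from 3.76 to 6.02 (median 4.97) in sham back skin. Col2a1, the cartilage collagen gene, was not above background on any array, ear included. The mean of the hair follicle list was 13.09 ± 2.90 (SD) in sham back skin and 5.83 ± 0.72 in sham ear. Mice 1 and 2 of sham back skin differed from the rest of their group. Their means lay above those of the other 6 arrays on 22 of 39 lists of pathway and cell type genes, and on the hair follicle list they were 7.20 and 11.09 against 12.11 to 15.45. Results of the gene lists are therefore also given without these 2 arrays where a count of called genes moved by over 1.5 times, and results of named genes where the gene changed its class. HDM ear arrays also differed among themselves, with neutrophil list means from 7.83 to 13.25 against 9.34 to 10.67 in HDM back skin. In such whole punches, fewer cells of a type and less RNA per cell cannot be told apart. The deposited values run from 1.71 to 19.93, which is wide for the stated normalization, and whether they were rescaled could not be told. If they were, sizes on the log2 scale would not be true ones.

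The split of called differences towards ear depended on scaling. As deposited, 66.8% of called rows had a higher difference, against 45.8% with array medians made equal (1105 higher, 1310 lower) and 50.3% after quantile normalization (1106 and 1092). The median difference of all rows was -0.01 as deposited and -0.13 with array medians made equal. For the gene lists below, a count of genes called for the difference is given with those settings where it moved by over 1.5 times. Without sham back mice 1 and 2, 1215 rows (5.47%) were called higher and 670 (3.02%) lower. In that fit 42 of the 76 and 25 of the 33 rows with opposite effects kept their class, as did 492 of the 751 and 329 of the 442 rows of the ear alone and 80 of the 113 and 138 of the 218 rows of back skin alone. After the mean of the skeletal muscle list and that of the adipocyte list had been added as covariates, 419 rows were called higher and 212 lower, and 0 rows remained in either opposite class. Those list means differed between the groups themselves: muscle was 11.80 ± 0.75 (SD, n = 8) in sham ear and 8.95 ± 0.88 in HDM ear, and adipocytes 11.71 ± 0.37 in sham and 10.45 ± 0.29 in HDM back skin. Among genes that passed the filter for naming, Cp had the called difference with the highest adjusted p (1.06 ± 0.35, adjusted p = 0.0499). Mrpl38 lay just outside the threshold (0.87 ± 0.29, adjusted p = 0.0501).

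**Figure D1:**
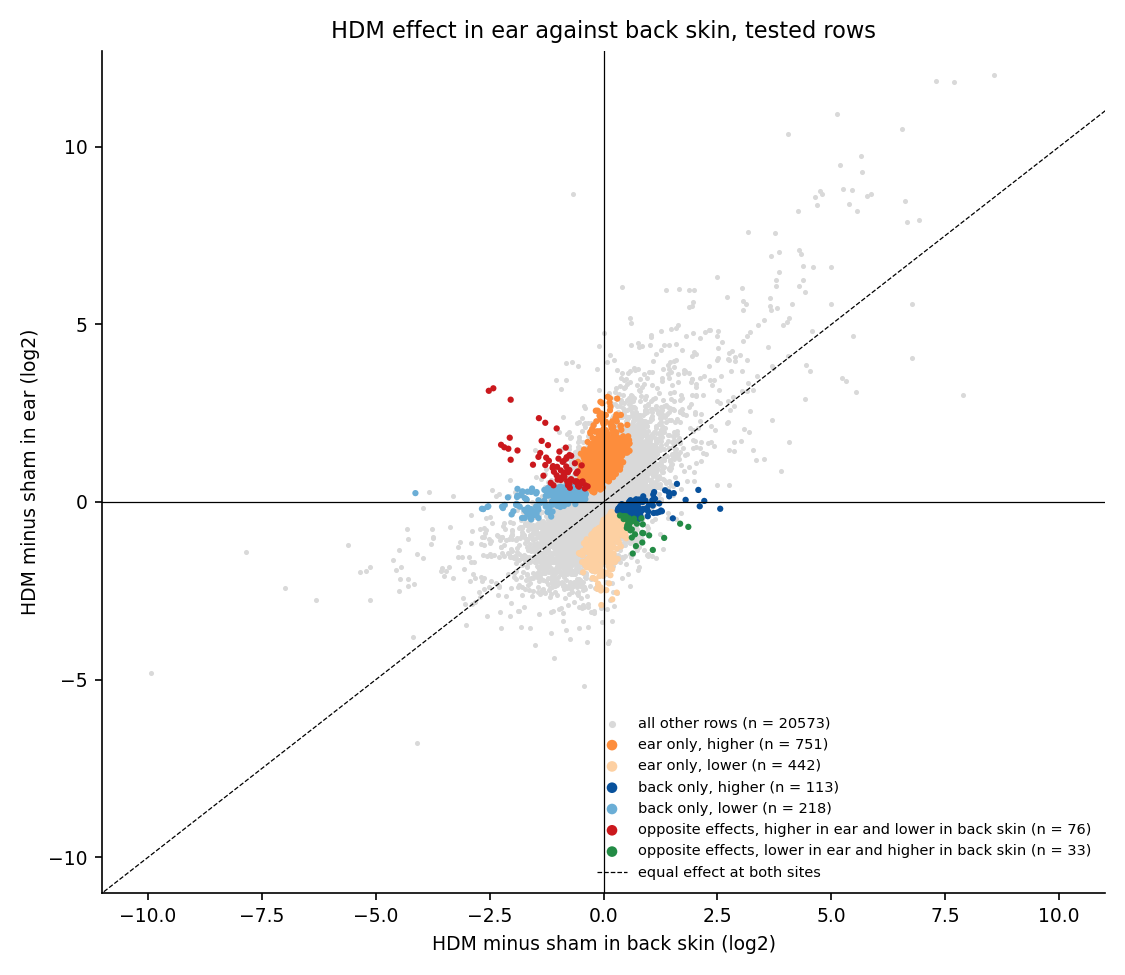
Effect of HDM in ear (vertical axis, log2) against its effect in back skin (horizontal axis, log2), 1 point per tested row, with the 6 classes coloured and the dashed line marking equal effects. The 76 rows that rose in ear and fell in back skin lie at the upper left, and the 33 with the reverse order in the lower right. The classes are regions of this plot by definition.

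Among the named genes that rose in ear and fell in back skin were the chemokines Ccl22 and Ccl19, the lectin Cd209e and several genes of macrophages. Over the 76 rows the ear effect ran from 0.38 to 3.20 and the back effect from -2.52 to -0.35, and 21 rows reached at least 1 at both sites. In 55 of the 76 the mean of sham back skin lay above that of sham ear while the mean of HDM ear lay above that of HDM back skin. For these rows the order of the site means was thus reversed between sham and HDM. No difference between sites had to be called for this, and the count is partly fixed by the way the class was chosen.

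Cd209e, a C-type lectin of the SIGN family, ranged in back skin from 7.41 to 10.88 (median 8.80) under sham and from 4.47 to 7.51 (median 6.72) under HDM. In ear it ranged from 4.89 to 6.47 (median 5.62) under sham and from 8.11 to 10.08 (median 8.73) under HDM. All HDM ear arrays lay above all sham ear arrays, and in back skin the groups overlapped by 1 sham array that fell below the highest HDM array. The ear effect was 3.13 ± 0.41 (SE, n = 8 per group), the back effect -2.52 ± 0.41, and their difference 5.65 ± 0.58 (limma adjusted p = 2.55e-07). Ccl22 ranged in back skin from 8.79 to 12.02 (median 9.17) under sham and from 5.30 to 8.87 (median 7.19) under HDM, and in ear from 6.19 to 7.21 (median 7.03) under sham and from 9.09 to 11.46 (median 9.97) under HDM. The ear groups did not overlap, and in back skin the highest HDM array lay just above the lowest sham array. Its effects were 3.20 ± 0.47 in ear and -2.42 ± 0.47 in back skin, a difference of 5.63 ± 0.66 (adjusted p = 2.1e-06). For Ccl19 the back arrays lay from 5.26 to 8.29 (median 6.02) under sham and from 3.94 to 4.72 (median 4.52) under HDM, so that the groups did not overlap and only 1 HDM back array was above background. The ear arrays lay from 4.49 to 5.86 (median 5.17) under sham and from 5.24 to 7.72 (median 6.64) under HDM with overlap, and the difference was 3.34 ± 0.54 (adjusted p = 0.000185). Mean background was 5.20 in sham ear, so the ear rise, too, starts from values near background. Without sham back mice 1 and 2, which were the highest 2 of that group for all 3 genes, the back effects were -2.0, -1.74 and -1.27, and all 3 kept their class.

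Cyp1b1, a cytochrome P450 that oxidises steroids and polycyclic hydrocarbons, separated the groups at both sites. Its back skin values ranged from 10.68 to 11.70 (median 11.50) under sham and from 9.62 to 10.50 (median 10.04) under HDM, and its ear values from 7.62 to 9.01 (median 8.23) under sham and from 9.54 to 11.53 (median 10.60) under HDM. The difference was 3.52 ± 0.37 (adjusted p = 2.82e-07), and sham back mice 1 and 2 did not stand out. Mmp12, the macrophage elastase, had the effects 2.88 ± 0.52 in ear and -2.04 ± 0.52 in back skin, and its groups overlapped at both sites. Mpeg1, which encodes the pore-forming perforin-2 of phagocytes, rose by 1.72 in ear, where groups did not overlap, and fell by 1.36 in back skin. Naaa, the lysosomal hydrolase of palmitoylethanolamide, had effects of 1.27 and -1.43, without overlap in back skin. Effects in ear and back skin were 1.25 and -1.26 for the lysozyme gene Lyz1, 1.38 and -1.39 for Olfm1, and 1.16 and -1.20 for Slc27a3 of the fatty acid transport family. Alpl, the tissue-nonspecific alkaline phosphatase, had effects of 2.36 and -1.42. These genes stood above background on all arrays of HDM ear, and their differences ran from 2.36 to 4.91.

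Members of the gene lists added further genes to this class. Serpinb2, a protease inhibitor of keratinocytes and macrophages, had effects of 1.22 in ear and -0.82 in back skin. Mcpt4, a mast cell chymase, had 0.85 and -1.09. Of the interferon response list, the GTPase genes Iigp1 (1.60 and -1.22) and Irgm2 (0.78 and -0.87) and the checkpoint ligand gene Cd274 (1.01 and -1.11) were in the class. When sham back mice 1 and 2 were left out the back effect was no longer called for 8 of the 18 named genes: Alpl (adjusted p = 0.138), Cd274 (0.293), Iigp1 (0.0667), Irgm2 (0.159), Mcpt4 (0.0931), Mmp12 (0.0502), Serpinb2 (0.225) and Slc27a3 (0.0942). The other 10 kept both calls, H2-DMb2 and Clec10a among them. When each of the 32 arrays was left out in turn, Cd274 kept its class in 8 of the 32 fits, Alpl in 14 and Irgm2 in 16.

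**Figure D2:**
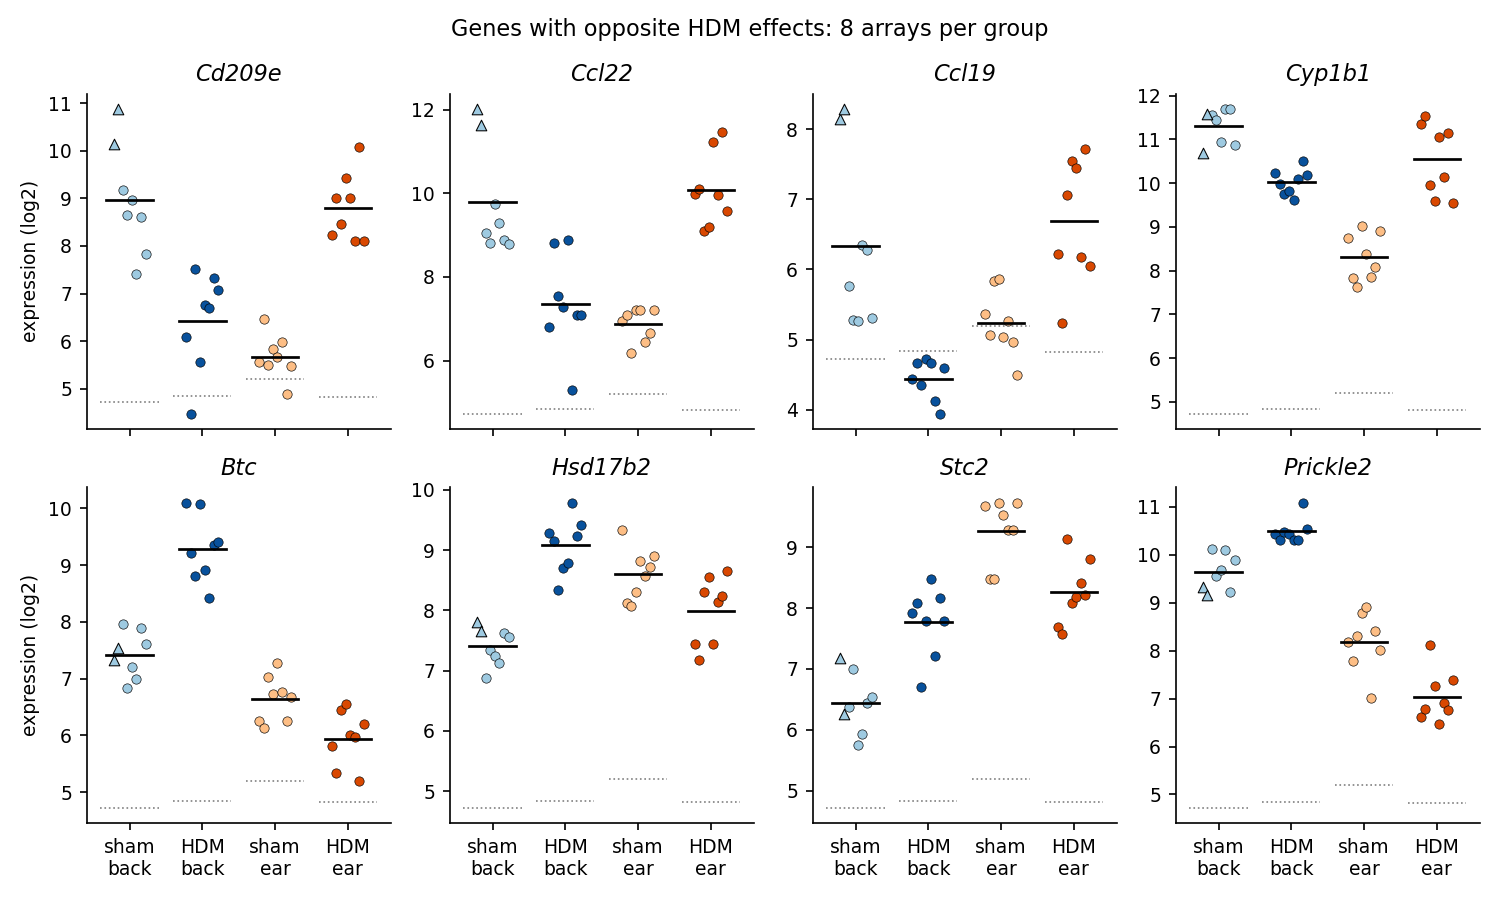
Expression (log2, vertical axis) on each of the 8 arrays of the 4 groups for 4 genes that rose in ear and fell in back skin (upper row) and 4 that fell in ear and rose in back skin (lower row). Black lines are group means, dotted lines the mean negative control level of the group, and triangles sham back mice 1 and 2. In the upper row the triangles are the highest sham back arrays for Cd209e, Ccl22 and Ccl19 but not for Cyp1b1.

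MHC class II presentation genes differed between the sites mainly by a fall in back skin. Of 11 measured genes of the list, 6 were higher in the difference and 0 lower, with a median difference of 1.61 against -0.01 over all rows, where 10.1% were called. In back skin 7 of the 11 fell and 1 rose, with a median of -1.23, where 8.56% of all rows fell and 6.18% rose. In ear, where 16.4% of all rows rose and 15.5% fell, 2 rose and 0 fell, with a median of 0.24. Under both other scalings and without sham back mice 1 and 2 the count was also 6 higher and 0 lower. These mice stood at 9.19 and 9.42 on this list, against 7.81 to 8.56 on the other 6 sham back arrays. Without them the back median was -0.93. The antigen-binding chains are represented by promoters of H2-Aa and H2-Eb1, which fell in back skin alone, and the peptide-loading chain H2-DMb2 by that of the 1 listed gene with opposite effects. RefSeq promoter windows (GRCm38.p6, 250 bases before to 50 after the start) are given in the direction of transcription, for H2-Aa at chr17:34287774-34288073 (minus strand), H2-Eb1 at chr17:34305617-34305916 (plus strand) and H2-DMb2 at chr17:34144999-34145298 (plus strand). Capitals mark CTGATTGG or its reverse complement CCAATCAG, and otherwise ATTGG or CCAAT.
H2-Aa: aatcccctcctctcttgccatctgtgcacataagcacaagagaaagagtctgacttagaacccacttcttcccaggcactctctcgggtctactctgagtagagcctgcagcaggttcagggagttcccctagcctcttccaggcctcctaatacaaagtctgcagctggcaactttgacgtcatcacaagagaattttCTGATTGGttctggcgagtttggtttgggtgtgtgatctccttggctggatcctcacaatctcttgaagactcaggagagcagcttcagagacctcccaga
H2-Eb1: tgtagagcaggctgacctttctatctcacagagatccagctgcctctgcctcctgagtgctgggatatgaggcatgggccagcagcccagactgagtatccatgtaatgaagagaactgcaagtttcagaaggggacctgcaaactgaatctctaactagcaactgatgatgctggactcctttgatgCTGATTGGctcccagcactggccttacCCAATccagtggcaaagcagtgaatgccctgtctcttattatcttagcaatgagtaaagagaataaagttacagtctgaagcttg
H2-DMb2: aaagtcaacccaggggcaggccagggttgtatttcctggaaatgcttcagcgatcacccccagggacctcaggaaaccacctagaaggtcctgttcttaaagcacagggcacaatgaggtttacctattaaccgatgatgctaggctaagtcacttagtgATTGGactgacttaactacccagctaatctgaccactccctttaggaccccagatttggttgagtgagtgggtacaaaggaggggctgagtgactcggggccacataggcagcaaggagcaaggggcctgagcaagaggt

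The letters CTGATTGG, on either strand, were found in the windows of H2-Aa and H2-Eb1 and in 4.1% of 32851 RefSeq promoters of this length. Of the 12 listed genes 9 had a window in the table, and 4 of these held CTGATTGG. The shorter ATTGG, which the longer motif contains, was found in windows of 8 of the 9 genes, H2-DMb2 included, and in 37.4% of all promoters. These are matches of letters only.

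H2-Eb1, the class II E beta chain, ranged in back skin from 11.28 to 13.60 (median 11.96) under sham and from 10.08 to 10.73 (median 10.50) under HDM. Its ear arrays lay from 10.91 to 11.80 (median 11.45) under sham and from 11.30 to 11.78 (median 11.44) under HDM. Groups did not overlap in back skin, where mice 1 and 2 were the highest sham arrays, and overlapped in ear. The back effect was -1.73 ± 0.24, the ear effect 0.11 ± 0.24 (95% confidence interval -0.37 to 0.60), and the difference 1.84 ± 0.34 (adjusted p = 0.000619). H2-Aa, the A alpha chain, had a back effect of -1.59 ± 0.25 and an ear effect of 0.29 (-0.22 to 0.80). H2-DMa and H2-DMb2 encode chains of the chaperone that exchanges peptides. H2-DMa fell in back skin alone (-1.78 ± 0.26), where 3 of 8 HDM arrays were above background. H2-DMb2 ranged in back skin from 9.50 to 12.14 (median 10.02) under sham and from 8.38 to 9.28 (median 8.80) under HDM, and in ear from 9.23 to 10.13 (median 9.65) under sham and from 10.05 to 11.19 (median 10.71) under HDM. Its back groups were separate and its ear groups overlapped, with effects of -1.55 ± 0.27 and 1.05 ± 0.27 and a difference of 2.60 ± 0.38 (adjusted p = 5.26e-05). Without sham back mice 1 and 2 the back effects of H2-Eb1, H2-Aa, H2-DMa and H2-DMb2 were -1.31, -1.20, -1.36 and -1.07. Each was still called.

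The remaining genes of the list were named after their values were seen. H2-Ab1 and H2-DMb1 fell in back skin alone, by 1.80 and 1.23, and H2-DMb1 may share probes with H2-DMb2. Ciita, the class II coactivator, had a back effect of -1.17 (95% confidence interval -1.71 to -0.64) and an ear effect of -0.12 (95% confidence interval -0.66 to 0.42), but its difference did not pass (adjusted p = 0.0681). Ctss, the cathepsin that trims the invariant chain, had positive effects of 2.15 in ear and 0.96 in back skin, and its difference did not pass either (adjusted p = 0.0817). H2-Eb2 and H2-Oa were not above background on any array.

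Of 17 measured markers of dendritic and Langerhans cells, 7 were higher in the difference and 0 lower (median 1.29). In back skin 7 fell and 0 rose (1 rose with array medians made equal), and in ear 5 rose (3 after quantile normalization) and 0 fell. Over all rows 6.77% were higher in the difference, 8.56% fell in back skin and 16.4% rose in ear. The mean of the list was 6.70 ± 0.55 (SD) in sham and 5.97 ± 0.13 in HDM back skin, and 5.88 ± 0.11 in sham and 6.43 ± 0.20 in HDM ear. On this list sham back mice 1 and 2 were at 7.55 and 7.54 against 6.13 to 6.60 on the other 6 arrays. The part of such cells in the class II result was not tested. Cd209a, a lectin of dermal dendritic cells, fell in back skin alone: it ranged from 8.93 to 11.42 (median 9.71) under sham and from 6.68 to 8.27 (median 7.46) under HDM there, without overlap, and had effects of -2.53 ± 0.34 in back skin and -0.12 in ear (-0.82 to 0.58). Xcr1, the chemokine receptor of conventional type 1 dendritic cells, was above background on 7 of 8 sham back arrays and on 0 of 8 arrays of each other group. Its level was at least 2.33-fold higher in sham than in HDM back skin (adjusted p = 5.79e-06), and no ear value can be given. Clec10a, a galactose-type lectin, had opposite effects of 0.74 ± 0.28 in ear and -1.32 ± 0.28 in back skin. Cd209d rose in ear (1.84 ± 0.39), while its back effect was -0.72 (-1.51 to 0.07).

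Named after their values were seen, Cd207, the Langerhans cell lectin langerin, had effects of -1.89 (95% confidence interval -2.64 to -1.14) in back skin and -0.09 (95% confidence interval -0.84 to 0.66) in ear. Mgl2 had a back effect of -2.29 and an ear effect of 0.23. Fscn1, an actin bundler of mature dendritic cells, went the other way, with 3.22 in ear and 1.17 in back skin. Zbtb46, Clec9a, Batf3 and Lamp3 were not above background on any array. Cd209a, Cd209d and Cd209e are close relatives, and the array may not keep them fully apart.

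**Figure D3:**
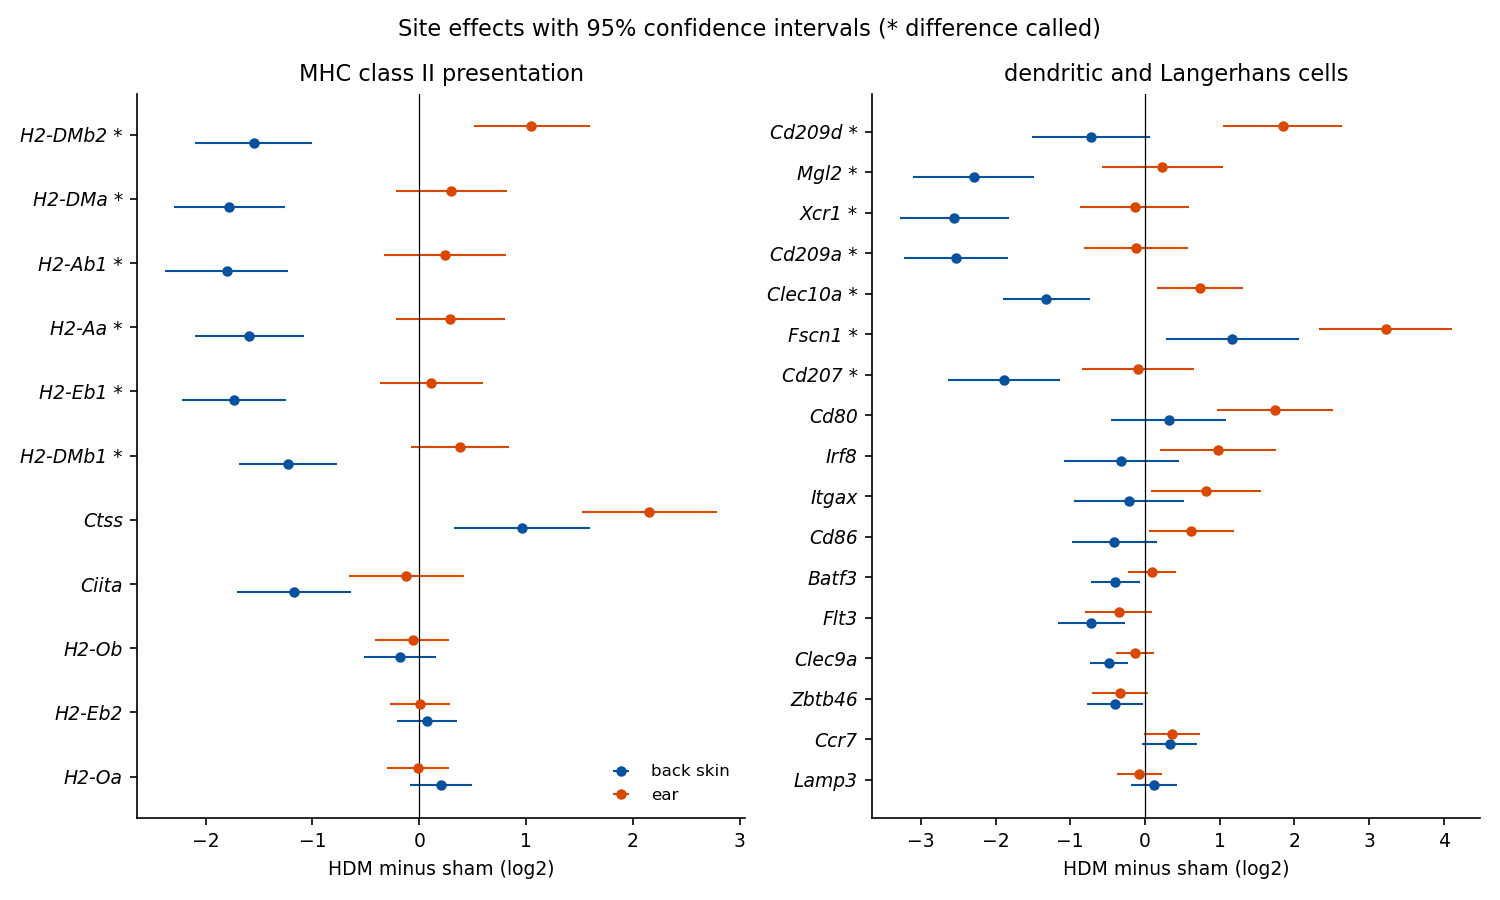
Effect of HDM (horizontal axis, log2) in back skin and ear for the measured genes of the MHC class II list (left) and the dendritic and Langerhans cell list (right). Points are estimates, bars 95% confidence intervals, and an asterisk marks a called difference between sites. For H2-Aa, H2-Ab1, H2-Eb1, H2-DMa and H2-DMb1 the ear intervals cover 0 and the back intervals lie below it.

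The 33 rows that fell in ear and rose in back skin had smaller effects, from -1.45 to -0.38 in ear and from 0.36 to 1.86 in back skin, and 2 of them reached a size of 1 at both sites. Btc, the epidermal growth factor receptor ligand betacellulin, ranged in back skin from 6.83 to 7.96 (median 7.44) under sham and from 8.42 to 10.10 (median 9.29) under HDM, and in ear from 6.13 to 7.27 (median 6.70) under sham and from 5.19 to 6.55 (median 5.99) under HDM. Back skin groups were separate and ear groups overlapped. Its effects were -0.70 ± 0.23 in ear and 1.86 ± 0.23 in back skin, a difference of -2.56 ± 0.33 (adjusted p = 7.33e-06). Hsd17b2, which oxidises estradiol and testosterone, ranged in back skin from 6.87 to 7.80 (median 7.46) under sham and from 8.34 to 9.79 (median 9.20) under HDM, again without overlap. Its effects were -0.61 ± 0.22 and 1.68 ± 0.22. Stc2, the hormone stanniocalcin, ranged in back skin from 5.75 to 7.18 (median 6.41) under sham and from 6.70 to 8.47 (median 7.86) under HDM, and in ear from 8.47 to 9.73 (median 9.40) under sham and from 7.57 to 9.14 (median 8.20) under HDM. By their medians, sham ear lay above sham back skin for Stc2 and both HDM groups lay between them, with effects of -1.01 ± 0.25 and 1.33 ± 0.25. Prickle2, a planar cell polarity gene, rose without overlap in back skin (0.85 ± 0.22) and fell in ear (-1.14 ± 0.22).

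Tll1, a tolloid-like metalloprotease, had effects of -1.35 ± 0.31 in ear and 1.08 ± 0.31 in back skin, and was the other gene with at least 1 at both sites. Cpe, carboxypeptidase E, had effects of -1.45 and 0.64. The laminin chain gene Lama3 had -0.77 and 0.62. The apoptosis repressor gene Nol3 had -0.63 and 0.86, and the phospholipase C gene Plcd3 -1.24 and 0.71. Phyh, the peroxisomal phytanoyl-CoA hydroxylase, had -0.61 and 0.73, the P450 gene Cyp4f17 -1.0 and 0.62, and Zfc3h1 -0.88 and 0.87. After sham back mice 1 and 2 had been left out, the back effects of Cpe (adjusted p = 0.0757), Lama3 (0.0827) and Tll1 (0.0748) were no longer called, and the other 9 named genes kept their class. The back effect of Cyp4f17 lay close to the threshold (adjusted p = 0.0488), and the gene kept its class in 11 of the 32 fits that left out 1 array. This class grew to 64 rows with array medians made equal and to 59 after quantile normalization.

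Among the 751 rows that rose in ear alone, the naming rule gave Pirb, an inhibitory Ig-like receptor, Nfkbiz, which encodes the nuclear I-kappa-B zeta, Laptm5, a lysosomal leukocyte protein, Mmp25, a leukocyte metalloproteinase, Lcp1, the leukocyte plastin, Spi1, the myeloid factor PU.1, Samhd1, a dNTP hydrolase, and Steap4, a metalloreductase. Apart from Mmp25, for which only a bound can be given in ear, their ear effects ran from 2.48 to 2.96. The back effects of all these genes ran from -0.17 to 0.30, each with an interval inside -1 to 1. Without sham back mice 1 and 2, the back effects of Pirb (0.57), Nfkbiz (0.68), Lcp1 (0.60), Spi1 (0.59) and Steap4 (0.55) were still not called, but their intervals reached beyond 1 and these genes left the class. Samhd1 ranged in ear from 9.95 to 11.20 (median 10.52) under sham and from 12.37 to 14.00 (median 12.94) under HDM, and in back skin from 10.86 to 12.98 (median 11.43) under sham and from 11.38 to 12.10 (median 11.45) under HDM. Ear groups were separate, and in back skin they overlapped with mice 1 and 2 as the highest sham arrays. The ear effect was 2.48 ± 0.26, the back effect -0.07 (-0.60 to 0.46), and the difference 2.55 ± 0.37 (adjusted p = 5.19e-05). Spi1 had an ear effect of 2.91 ± 0.33 and a back effect of 0.30 (-0.37 to 0.98). Mmp25 was below background on all sham ear arrays, and HDM ear was at least 2.88-fold higher.

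Of 18 measured macrophage and monocyte genes, 13 were higher in the difference and 0 lower (median 1.81). With array medians made equal, after quantile normalization and without sham back mice 1 and 2, 10 were higher. In ear 17 of the 18 rose, and in back skin 2 rose and 0 fell, against 4 and 0 in each of those settings. Over all rows 6.77% were higher in the difference, and 16.4% rose in ear and 6.18% in back skin. The class of ear alone held 3 of the 18. The list mean was 8.68 ± 0.65 (SD) in sham and 9.21 ± 0.14 in HDM back skin, 7.80 ± 0.13 in sham ear and 10.26 ± 1.04 in HDM ear. Csf1r, the receptor for macrophage colony-stimulating factor, rose in ear alone (1.47 ± 0.23, back -0.16, -0.64 to 0.31). Fcgr3, Cd163 and Mrc1 rose in ear by 3.96, 3.39 and 3.31, and their back effects of 1.08, 0.57 and 0.51 were not called but had intervals beyond 1. In the fit without sham back mice 1 and 2 the back effect of Fcgr3 was 1.5 and was called (adjusted p = 0.0073), so that it rose at both sites. Lyve1, a hyaluronan receptor of lymphatic endothelium and some macrophages, ranged in ear from 9.53 to 10.47 (median 9.97) under sham and from 11.48 to 12.47 (median 11.98) under HDM, without overlap. Its back skin arrays lay from 8.02 to 10.48 (median 8.98) under sham and from 8.16 to 10.03 (median 9.33) under HDM and overlapped, with a difference of 2.13 ± 0.40 (adjusted p = 0.000803). Krt1, the keratin of differentiating epidermis, was lower in sham ear than in sham back skin by 1.82 and rose in ear alone (2.06 ± 0.22, back 0.18, -0.27 to 0.62).

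Signal transducers in ear alone were Jak2 (1.69 ± 0.24) and Stat3 (1.65 ± 0.22), against 0.13 and 0.44 in back skin. With sham back mice 1 and 2 left out the back effect of Stat3 was 0.79 and was called (adjusted p = 0.00242), so that it rose at both sites and more in ear. Others were the interleukin receptor chain Il17ra (1.79 ± 0.26), the growth factor gene Tgfb1 (1.82 ± 0.24), the adhesion gene Icam1 (1.58 ± 0.27), the complement receptor C5ar1 (2.41 ± 0.39) and the replication helicase subunit Mcm3 (2.15 ± 0.22). Of the T cell markers Thy1 (1.22 ± 0.22) and Cd4 (1.34 ± 0.30) rose in ear alone, and Cd4 lost its called difference without sham back mice 1 and 2 (adjusted p = 0.111), and kept its class in 10 of the 32 fits that left out 1 array. Without those mice the back effects of C5ar1 (0.26) and Mcm3 (0.54) had intervals beyond 1. In that fit 15 of the 26 named genes of this class kept it. In 526 of the 751 rows the mean of sham back skin lay above that of sham ear and the mean of HDM ear above that of HDM back skin. That count, too, is partly fixed by the way the class was chosen. In 26 of the 751 rows both back groups were below background on all arrays, so that the back effect could not be measured.

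Cartilage genes fell in ear. Of 18 measured, 9 were lower in the difference and 0 higher (median -1.20), all 9 in the class of ear alone, and 14 of the 18 fell in ear. Over all rows 3.37% were lower in the difference, 1.99% were in that class and 15.5% fell in ear. The list mean was 7.95 ± 0.12 (SD) in sham ear and 6.84 ± 0.54 in HDM ear. In back skin 11 of the 18 were below background on all arrays of both groups, so the difference restates the ear effect for these. Chad, the cartilage protein chondroadherin, ranged in ear from 10.70 to 12.36 (median 11.50) under sham and from 6.61 to 10.64 (median 8.95) under HDM without overlap, an effect of -2.74 ± 0.38 (adjusted p = 1.84e-06), and was not above background in back skin. Also below background on all back skin arrays were Clec3a, a cartilage lectin (-2.48 ± 0.39), Cnmd, chondromodulin (-1.88 ± 0.24), and Snorc (-1.45 ± 0.23), given here with their ear effects. Acan fell in ear by 1.79 with a back effect of 0.12 (-0.52 to 0.77), although back skin values lay near background. Meltf, melanotransferrin, and Col11a2, a cartilage collagen chain, had ear effects of -2.55 ± 0.32 and -1.04 ± 0.15. When sham back mice 1 and 2 were left out, the back intervals of Chad (effect 0.19) and Meltf (0.35) reached beyond 1. Over the whole class, both back groups were below background in 62 of 442 rows.

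Of 22 skeletal muscle genes 12 were lower in the difference and 0 higher (median -2.49), where 3.37% of all rows were lower. In ear 21 of the 22 fell (median -2.85), where 15.5% of all rows fell, and in back skin 0 were called (median -0.41). Without sham back mice 1 and 2, 3 of the 22 fell in back skin, with a back median of -0.90, and 9 were lower in the difference. The class of ear alone held 0 of the 22, since the back intervals of the 12 called genes were too wide. Muscle content also varied within groups, with list means from 9.52 to 14.58 among sham back arrays and from 10.63 to 12.61 among sham ear arrays. Some muscle genes outside the list were named by their differences. Tnnt1, the slow troponin T, ranged in ear from 10.21 to 12.63 (median 11.75) under sham and from 8.74 to 9.77 (median 9.44) under HDM, and in back skin from 5.08 to 7.60 (median 6.71) under sham and from 5.67 to 7.32 (median 6.60) under HDM. The ear groups did not overlap, and the back groups did. Its ear effect was -2.29 ± 0.33, its back effect 0.12 (-0.55 to 0.80), and the difference -2.41 ± 0.47 (adjusted p = 0.00115). Trdn, the calcium release protein triadin, had an ear effect of -2.90 ± 0.40, Lmod2, leiomodin, -2.45 ± 0.42, and Myl2, the slow myosin light chain, -2.40 ± 0.33. After sham back mice 1 and 2 had been left out, the back intervals of Trdn (effect -0.46) and Lmod2 (-0.52) reached beyond 1. Myh4, a listed fast myosin heavy chain, fell in ear by 5.17, and its back effect of -0.42 had an interval of -1.68 to 0.84. With the muscle and adipocyte means as covariates the differences of Acta1 and Ckm were no longer called and changed sign, which follows in part from their being members of the muscle list. Both differences were also not called without sham back mice 1 and 2 (adjusted p = 0.0756 and 0.0779).

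S100b, a calcium-binding protein of Schwann cells and chondrocytes, ranged in ear from 8.55 to 9.44 (median 9.04) under sham and from 4.76 to 8.06 (median 6.79) under HDM, without overlap. In back skin it was above background on 3 of 8 sham and 0 of 8 HDM arrays. Its ear effect was -2.49 ± 0.32. Ncmap, a myelin protein gene, fell in ear by 1.65. Together these made up the 2 of 7 Schwann cell genes that were lower in the difference, against 3.37% of all rows. The Schwann cell list means were 8.49 ± 0.11 (SD) in sham ear and 7.42 ± 0.61 in HDM ear. Epidermal genes that fell in ear alone were Krt80 (-1.18 ± 0.19) and Spink5 (-0.70 ± 0.15), the inhibitor of epidermal kallikreins. In the fit without sham back mice 1 and 2, Spink5 rose in back skin (0.43, adjusted p = 0.0305) and moved to the opposite class. Fabp4, the adipocyte fatty acid binding protein, fell in ear by 1.16, and without sham back mice 1 and 2 its difference was not called (adjusted p = 0.109). It was the 1 adipocyte gene of 15 called for the difference, and the list fell at both sites. In ear 15 of the 15 fell (median -1.59) and in back skin 11 (median -1.17), against 15.5% and 8.56% of all rows. Fabp4 kept its class in 11 of the 32 fits that left out 1 array. Of the 16 named genes of the class, 10 kept it without sham back mice 1 and 2. With array medians made equal the class held 708 rows, and after quantile normalization 689.

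Among the 113 rows that rose in back skin alone, the named genes included Crabp2 and Lrat, both of the vitamin A pathway. Crabp2, the cellular retinoic acid binding protein, ranged in back skin from 11.93 to 12.62 (median 12.28) under sham and from 14.41 to 15.33 (median 14.94) under HDM. In ear it ranged from 11.72 to 12.53 (median 12.20) under sham and from 11.21 to 12.62 (median 12.01) under HDM. Every HDM back array lay above every array of the other 3 groups. The back effect was 2.56 ± 0.17, the ear effect -0.19 (-0.55 to 0.16), and the difference -2.76 ± 0.25 (adjusted p = 1.35e-08). Lrat, which esterifies retinol, ranged in back skin from 4.65 to 7.98 (median 6.92) under sham and from 8.64 to 9.48 (median 8.97) under HDM, without overlap, an effect of 2.21 ± 0.33. It was above background on 1 sham and 2 HDM ear arrays, so the ear effect of 0.03 is a value near background. The list of xenobiotic and retinoid enzymes as a whole had 2 genes higher and 3 lower of 22, or 22.7% called against 10.1% of all rows. In the class of back skin alone with a rise was 1 of the 22.

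Il18, an interleukin of keratinocytes, rose in back skin without overlap (1.52 ± 0.21) and had an ear effect of -0.46 (-0.89 to -0.03). Them5, a thioesterase of fatty acids, ranged in back skin from 8.66 to 10.88 (median 9.0) under sham and from 10.74 to 12.56 (median 11.35) under HDM. Of the sham back arrays, mouse 1 alone overlapped with HDM back skin, which lay at the level of both ear groups. Mice 1 and 2 were the highest sham back arrays. The remaining back effects were 1.80 ± 0.34 for the P450 gene Cyp3a13, 1.28 ± 0.19 for the phosphomannomutase gene Pmm1, and 1.22 ± 0.30 and 1.26 ± 0.29 for the late cornified envelope genes Lce1f and Lce1g, which are near-identical relatives. For both Lce1 genes sham ear was higher than sham back skin, by 2.40 and 2.76. All 8 named genes kept the class without sham back mice 1 and 2. The class held 285 rows with array medians made equal.

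Back skin alone fell for further genes. Crygn, a crystallin gene, ranged in back skin from 8.18 to 10.44 (median 9.13) under sham and from 4.17 to 6.43 (median 5.47) under HDM, without overlap. In ear it ranged from 5.95 to 7.40 (median 7.14) under sham and from 6.33 to 8.21 (median 7.22) under HDM, with overlap. The back effect was -4.13 ± 0.32, the ear effect 0.25 (-0.41 to 0.91), and the difference 4.38 ± 0.46 (adjusted p = 2.62e-07). Il20, a cytokine of keratinocytes and myeloid cells, was above background on all sham and 0 HDM back arrays, at least 2.9-fold higher in sham (adjusted p = 1.89e-07). Pkib, an inhibitor of protein kinase A, had a back effect of -2.67 ± 0.30, and C1qtnf7, of the C1q and TNF related family, -1.89 ± 0.26. Klrb1b, a receptor of natural killer cells, had -2.10 ± 0.35, and the BMP antagonist gene Chrdl1 -2.23 ± 0.27. Their ear effects lay between -0.20 and 0.37.

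Of 13 measured lipid genes of the sebaceous gland, 8 were higher in the difference and 1 was lower, and 2 were in the class of back skin alone with a fall. After quantile normalization and without sham back mice 1 and 2, 0 were lower. In back skin 11 fell and 1 rose (median -2.06), and in ear 5 fell and 1 rose (median -1.01). Over all rows 6.77% were higher in the difference, 8.56% fell in back skin and 15.5% fell in ear. Scd1, the stearoyl-CoA desaturase, fell in back skin without overlap (-1.68 ± 0.18), with an ear effect of -0.30 (-0.67 to 0.07). Its brightest arrays lay at the upper end of the scale, at 19.93, where differences may be compressed. Plin2, a lipid droplet coat protein, fell in back skin by 1.98 with an ear effect of -0.26 (-0.79 to 0.27). Dgat2l6 and Awat1, acyltransferases of sebum, fell in back skin by 3.84 and 4.29, with ear intervals of -0.47 to 1.03 and -1.92 to -0.18. With sham back mice 1 and 2 left out the ear interval of Dgat2l6 lay inside -1 to 1. Outside that list, Errfi1, a feedback inhibitor of the epidermal growth factor receptor, and Serping1, the C1 inhibitor, had back effects of -1.07 ± 0.23 and -0.94 ± 0.18. Kit, the stem cell factor receptor of mast cells and melanocytes, had -0.67 ± 0.21 and was the 1 named gene of 16 that lost the class without sham back mice 1 and 2. It kept the class in 9 of the 32 fits that left out 1 array.

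**Figure D4:**
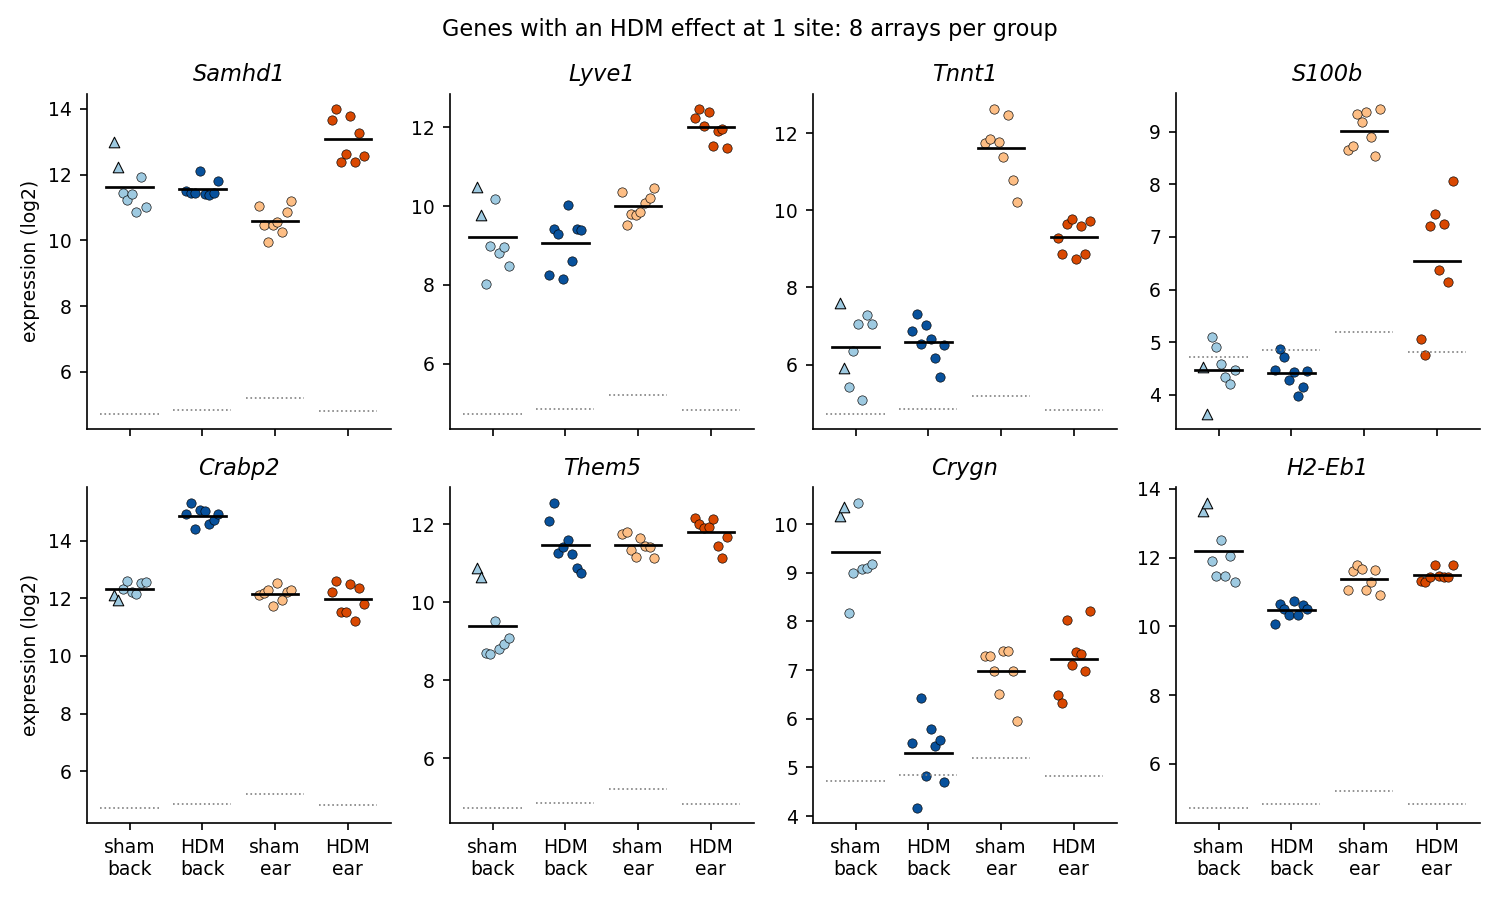
Expression (log2, vertical axis) on each of the 8 arrays of the 4 groups for 8 genes with an effect at 1 site. Samhd1 and Lyve1 rose and Tnnt1 and S100b fell in ear, and Crabp2 and Them5 rose and Crygn and H2-Eb1 fell in back skin. Black lines are group means, dotted lines the mean negative control level of the group, and triangles sham back mice 1 and 2.

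The remaining lists place these genes among the inflammatory response. The interferon response had 16 of 32 measured genes higher and 0 lower (median 1.16). In ear 23 rose (16.4% of all rows did), and in back skin 0 rose and 4 fell (6.18% and 8.56% of all rows). Without sham back mice 1 and 2, 10 were higher and 0 fell in back skin (back median 0.01). In back skin 2 fell with array medians made equal and 2 after quantile normalization. Of the chemokine genes for ligands of Cxcr3, Cxcl9 rose in ear by 3.83 on the log2 scale and Cxcl10 by at least 2.54-fold. Type 2 cytokines, chemokines and receptors had 10 of 23 higher and 1 lower, and 0 lower after quantile normalization. Among them Ccl17, the other ligand of Ccr4, was below background on all sham ear arrays and at least 5.88-fold higher in HDM ear, and its back effect was -0.82 (-1.54 to -0.11). When sham back mice 1 and 2 were left out the back intervals of Ccl17 (effect -0.35) and Cxcl10 (-0.28) lay inside -1 to 1. Against 6.77% of all rows called higher and 3.37% called lower, other lists with more genes higher than lower were inflammatory cytokines and chemokines (6 and 1 of 23), neutrophils (5 and 0 of 17), the IL-17, IL-20 and IL-36 axis (5 and 0 of 23), antimicrobial proteins (6 and 0 of 13), macrophage activation products (2 and 0 of 7), mast cells (4 and 0 of 12) and homeostatic chemokines (2 and 0 of 7, and 1 and 0 under both other scalings). T cells (2 and 0 of 15) and natural killer cells (1 and 0 of 10) had 13.3% and 10% of their genes called, near the 10.1% of all rows. T cells had 1 higher under both other scalings and without sham back mice 1 and 2, and natural killer cells 0 without those mice. Neutrophil genes rose at both sites, 15 in ear and 14 in back skin, and without sham back mice 1 and 2 only 2 of the 17 differed. In that fit the IL-17, IL-20 and IL-36 axis had 4 higher and 1 lower.

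The stress keratin, connexin and small proline-rich list had 9 of 16 higher and 0 lower, cell cycle genes 12 and 0 of 27, epidermal ceramide synthesis 6 and 0 of 25, serpins 5 and 1 of 17, JAK, STAT and SOCS genes 6 and 0 of 13, eicosanoid enzymes 5 and 1 of 14, complement 5 and 0 of 12, endothelium and lymphatics 4 and 0 of 16, and the epidermal growth factor receptor ligands 2 and 1 of 9. For the first 2 of these lists the sites differed more under sham than under HDM. Stress keratin list means were 9.15 in sham back skin and 5.96 in sham ear, against 12.45 in HDM back skin and 11.82 in HDM ear. In sham ear 4 of its genes were below background on all arrays. Cell cycle list means were 9.20 in sham back skin and 8.12 in sham ear, against 9.91 in HDM back skin and 9.84 in HDM ear. Under both other scalings ceramide synthesis had 6 higher and 1 lower and complement 5 and 1. After sham back mice 1 and 2 had been left out, ceramide synthesis had 5 and 2, eicosanoid enzymes 3 and 1, and the growth factor receptor ligands 2 and 2. Some lists were called at a rate near that of all rows. Cornified envelope genes had 14.7% called, 3 higher and 2 lower of 34, and this order turned to 3 higher and 4 lower under both other scalings and to 1 and 6 without sham back mice 1 and 2. Kallikreins and membrane serine proteases had 14.3% called, 1 higher and 2 lower of 21, with 1 and 4 when array medians were made equal and 0 and 3 without those mice. Matrix genes had 3 and 0 of 21, and 2 and 1 without those mice. Adipocyte genes had 0 and 1 of 15, with 0 and 3 when array medians were made equal and 1 and 0 without those mice. B and plasma cells had 16.7% called, 0 higher and 1 lower of 6. Above the 10.1% of all rows lay the basal and differentiation keratins, with 45.5% called, 2 higher and 3 lower of 11. Circadian clock genes had 21.4% called, 0 higher and 3 lower of 14, and 1 and 2 without sham back mice 1 and 2. Per3, a clock repressor, had effects of -1.35 ± 0.31 in ear and 0.73 (0.10 to 1.36) in back skin. At the limma adjusted p under 0.05, 0 were called of the 19 hair follicle, 18 cholesterol synthesis, 9 melanocyte and 7 eosinophil and basophil genes. The hair follicle list had a median difference of -1.62 and a back median of 0.63, which became -0.10 and -0.84 without sham back mice 1 and 2, and 3 of its genes were below background on all ear arrays.

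**Figure D5:**
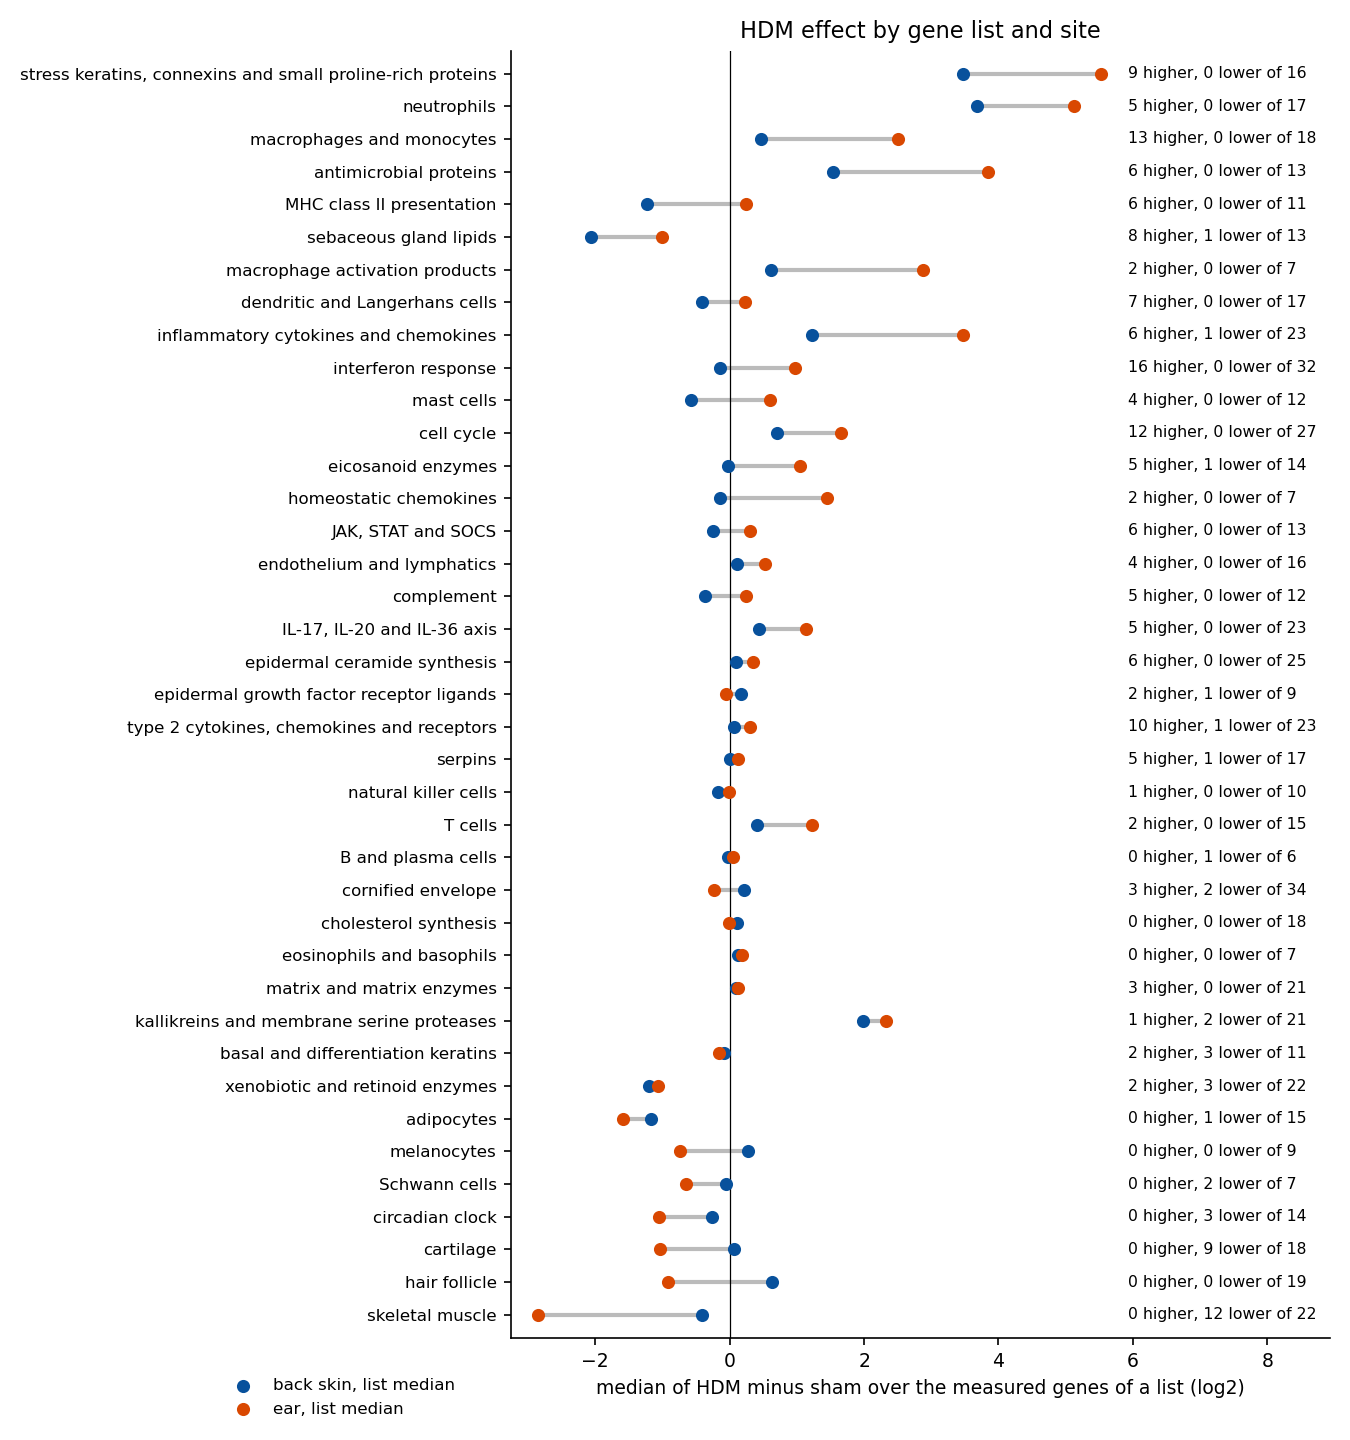
Median effect of HDM (horizontal axis, log2) over the measured genes of each of the 39 lists, in back skin and in ear, with lists ordered by their median difference. Numbers at the right count genes called higher or lower for the difference. Several lists have a back median below 0 and an ear median above it, MHC class II presentation and mast cells among them. Muscle and cartilage are among several lists with negative ear medians.

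Some of the largest differences lay outside the opposite and 1-site classes. In 101 rows the effect had the same direction and was larger in ear, in 32 it was larger in back skin, and for 399 the effect was called at 1 site while the interval at the other was too wide to assign it. Alox8, a lipoxygenase of stimulated epidermis, ranged in ear from 5.34 to 10.94 (median 6.69) under sham and from 14.74 to 16.53 (median 15.77) under HDM, without overlap, and in back skin from 9.25 to 14.69 (median 12.11) under sham and from 9.49 to 13.00 (median 11.68) under HDM. Its ear effect was 8.66 ± 0.66, its back effect -0.67 (-2.02 to 0.68), and the difference 9.32 ± 0.94 (adjusted p = 1.87e-07). Ccl9, a chemokine of myeloid cells, had effects of 6.05 ± 0.46 in ear and 0.41 (-0.53 to 1.35) in back skin. Cyp2g1, a P450 gene, fell in back skin without overlap (-7.84 ± 0.66), with -1.41 (-2.76 to -0.06) in ear. Klk14, an epidermal kallikrein, rose at both sites: by 7.89 on the log2 scale in back skin, and by at least 2.57-fold in ear, where sham was below background. By the fit the rise was larger in back skin, but the bound in ear does not settle this. Aldh1a3, which makes retinoic acid, rose by 4.08 in back skin and 1.68 in ear, a difference of -2.40 ± 0.30 (adjusted p = 5.71e-06).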

How the data were processed

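Expression was measured on 32 single-colour arrays, 8 in each of 4 groups set by the sample titles. The authors deposited log2 values, for which the submitters' processing notes name RMA and the Transcriptome Analysis Console. Their versions, the genome build and the annotation are not given in the sources here. Of 28846 rows, 6640 array controls were left out and 22206 were tested, of which 19572 carry 1 gene symbol from the platform annotation and 2634 none.

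The 4 group means were fitted by limma 3.58.1 (R 4.3.3) to the deposited log2 values, with lmFit and eBayes, two-sided tests, 32.1 total degrees of freedom and no covariate or block. The p-values were Benjamini-Hochberg adjusted over all tested rows. Tables and figures used Python 3.11.15, pandas 2.3.3 and matplotlib 3.10.9. Effects are given ± SE. The SE rests on 1 spread per row, shared by the 4 groups although HDM ear varied more. The ear and back effects use different arrays, while each class rests on the same fits as the difference.

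Background was the negative control median of each array (4.43 to 5.38), and 54.4% to 62.3% of rows lay above it. A gene below it on all 8 arrays of a group is given only a bound there, with the fit's adjusted p, and no fold where both groups are below it. The number of arrays limits the precision, and the median SE of a difference was 0.266. On simulated data of 22206 rows, the same test recovered 47 of 100 differences of 1 and 93 of 100 of 2, with 10 wrong calls. The simulated noise was normal with 1 spread per row for all 4 groups, while HDM ear varied more in the data. Fewer rows were changed than the 2251 called in the data, so these rates need not hold there.

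Named genes had 1 symbol, were not predicted genes, and were above background on at least 6 of 8 arrays of a group. They are the 12 per direction with the largest smaller site effect (opposite classes), the 8 with the largest difference (each 1-site class), up to 4 called genes per list with the smallest adjusted p, listed genes of the opposite classes, and 8 tissue markers. The 39 lists hold 688 genes, of which 634 were measured. Members and lists were chosen with earlier results of these data known. Relatives such as the Stfa, Lce1, Cd209 and H2-DMb genes may share probes.

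Whether equal mouse numbers pair back skin and ear was checked by the correlation of deviations from group means: over 16 pairs it ran from -0.113 to 0.14, 1 pair exceeded 0.1, and 1 matched its own number best. The numbers were therefore not used as pairs. Low correlations do not show that the samples came from different animals, since the deviations also vary with the content of each punch. Alternatives changed the scaling, background, filter, spread, covariates, threshold, block and arrays; raising values to the mean background of all arrays was added after the data were seen.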

Additional observations from a re-analysis of the deposited data

Results flagged for a closer look

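The effect of HDM differed between ear and back skin, by the limma test of the difference itself, for 1503 rows with a higher difference and 748 with a lower one. Among them 76 rows rose in ear and fell in back skin and 33 fell in ear and rose in back skin, while 751 rose and 442 fell in ear only, and 113 rose and 218 fell in back skin only.

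For 118 genes named in the text, each of the 4 groups was searched for an array far from the other 7 of its group. By Dixon's criterion at the 95% level, 18 of 472 groups had such an array, where chance gives about 1 in 20. Arrays far above their group, with their log2 level, were found for Alox8 (10.94, sham ear mouse 2), Cpe (12.34, sham back skin mouse 7), Jak2 (13.64, sham back skin mouse 2), Klk14 (4.41, sham ear mouse 2), Per3 (10.59, sham ear mouse 5) and Prickle2 (11.09, HDM back skin mouse 7). Arrays far below their group were found for Ccl9 (5.95, sham ear mouse 5), Cd209d (5.10, sham ear mouse 1), Clec10a (7.75, HDM ear mouse 2), Fabp4 (15.56, sham back skin mouse 1), Icam1 (6.68, sham ear mouse 3), Krt5 (18.58, sham ear mouse 3), Lama3 (12.50, sham ear mouse 6), Mrc1 (12.26, HDM back skin mouse 5), Phyh (8.22, sham back skin mouse 4), Scd1 (19.38, sham ear mouse 3), Snorc (4.76, sham ear mouse 8) and Tll1 (5.38, HDM ear mouse 5).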

How the results depend on the processing

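Counts are given in the order difference higher, difference lower, ear effect, back effect, opposite (ear higher, ear lower), ear only (higher, lower) and back only (higher, lower); as deposited they were 1503, 748, 7076, 3273, 76, 33, 751, 442, 113 and 218. Only counts that moved by over 1.5 times are listed. With array medians made equal the lower differences were 1310, opposite with ear lower 64, ear only lower 708, back only higher 285 and back only lower 140. Quantile normalization gave 59 opposite with ear lower and 689 ear only lower. Raising values to each array's own background gave 2314 higher and 9789 lower differences, 15862 ear effects, 69 opposite with ear lower, 1187 and 9120 ear only and 172 back only higher. Mean background was 5.20 in sham ear and 4.72 to 4.84 in the other groups, so this setting turns unequal backgrounds into differences of dim rows. Raising values to 1 common background instead gave 1286 and 601. Muscle and adipocyte means as covariates gave 419, 212, 69, 114, 0, 0, 10, 0, 10 and 3. Of 162 named genes with a called difference, 65 lost the call in that fit and 2 changed sign, Acta1 to 0.11 and Ckm to 0.05. At an adjusted p under 0.01 the moved counts were 669, 264, back effect 1728, 25, 10, 323, 166, 31 and 80. Requiring a size of at least 1 gave 424 lower, 3071, 1222, 21, 2, 365, 179, 23 and 82.

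Leaving out each array in turn gave 1235 to 1725 higher and 582 to 919 lower differences, 6273 to 7411 ear and 2699 to 3422 back effects, 61 to 84 and 24 to 37 opposite rows, 589 to 872 and 343 to 576 ear only, and 89 to 123 and 167 to 236 back only. Without sham back mice 1 and 2, 14 of the 162 named genes lost their called difference: Acta1, Alox5, Cd4, Ckm, Cnfn, Dbp, Fabp4, Gzmb, Kit, Plvap, Prss27, Stfa2l1, Stfa3 and Tnc. The check given did not show pairing by mouse number and could not exclude it. With the number within agent as a replicate block, 1548 higher and 777 lower were called with a random block (consensus correlation 0.0148) and 1356 and 608 with a fixed block. Apart from the values given, the counts stayed within 1.5 times in these alternatives and in the filter on dim rows, the trend and robust fit, group array weights and the removal of repeated rows. The causes of these changes were not tested. Rows near background limit what can be said of 1 site: both back groups were below it in 62 of 442 and both ear groups in 31 of 113 and 23 of 218 rows of the 1-site classes.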

Other observations

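Genes that moved in 1 direction at both sites, but more in back skin, included barrier and gland genes. Krt77, a keratin of sweat ducts and suprabasal skin, had effects of -9.93 ± 0.78 (SE, n = 8 per group) in back skin and -4.81 ± 0.78 in ear, a difference of 5.12 ± 1.10 (limma adjusted p = 0.00286). The fatty acid hydroxylase gene Fa2h had -5.34 ± 0.63 and -1.97 ± 0.63, and the ceramide synthase gene Cers4 -4.09 ± 0.45 and -1.45 ± 0.45. Serpinb6d fell by 7.0 in back skin and 2.43 in ear.

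Other genes rose at both sites and more in ear. Defb3, a beta-defensin, rose by 11.86 in ear and 7.30 in back skin, a difference of 4.56 ± 0.98 (adjusted p = 0.00278). Ccl8 rose by 5.96 and 1.99, and Il4ra, the receptor chain shared by interleukins of type 2 responses, by 3.98 and 1.54. No rise in back skin was called for Reg3g, an antimicrobial lectin, which was above background on 6 of 8 HDM ear arrays and on 0 arrays of the other groups.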
